A study of Mus musculus with 6 samples.

Results

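The 39 genes described here encode proteins of the lysosome. They are the 10 proteases, 10 glycosidases, 4 sulfatases, 3 lipid hydrolases and 3 lipid-binding activators of its lumen, 6 proteins of its membrane, the transcription factors *Tfeb* and *Tfe3*, and the progranulin gene *Grn*. They were chosen by gene symbol, and all 39 were found among the 23276 gene symbols listed. Total RNA of 6 whole mouse kidneys was sequenced at post-natal day 22. All 6 kidneys carried KspCre, which recombines floxed alleles in kidney tubule cells, and *Pkd1* F/RC, a floxed *Pkd1* allele over the hypomorphic RC allele. The 3 SKO kidneys carried no further allele, and the 3 DKO kidneys also carried miR17~92 F/F, a floxed copy of the miR-17 cluster on both chromosomes. There was no kidney with intact *Pkd1* among the samples, and the RNA came from all cells of the organ, including those in which KspCre is not expressed.

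The values are the authors' mean abundance of each transcript over the 6 kidneys, as CPM, the read count scaled to the size of its library. No value for a single kidney was analysed, so the depth of each library, the spread between mice and the level of the deleted cluster in each kidney are unknown here. A level of SKO kidneys could not be set against a level of DKO kidneys. The authors' own comparison of the groups is not reported. The levels below therefore describe SKO and DKO kidneys as a whole, carry no error, and were not tested against each other. Since there is no spread, it cannot be said which neighbours in an order of levels differ. For comparing genes, the CPM of a gene's most abundant RefSeq transcript was divided by the length of its exons in kilobases (CPM per kb).

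Lysosomes are acidic organelles in which proteins, glycans and lipids taken up or recycled by the cell are broken down. Most of their soluble enzymes are tagged with mannose phosphate in the Golgi apparatus and carried to the lysosome by receptors, while the membrane proteins shield the organelle, export the products and mediate fusion. In the kidney, the proximal tubule takes up filtered protein by endocytosis and degrades it in lysosomes. TFEB and TFE3 are transcription factors that bind an E-box shared by many lysosomal genes.

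The labelled tissue was checked by its markers. Both markers of the thick ascending limb were abundant, *Umod* at 374 CPM per kb and *Slc12a1* at 132, and the 6 proximal tubule markers ranged from 11.4 CPM per kb for *Cubn* to 423 for *Slc34a1*. All 6 macrophage markers were present with at least 1 CPM, but only *Csf1r* reached 10 CPM, at 25.3. *Ckm* and *Acta1*, which mark skeletal muscle, were at 0.0573 and 0.0890 CPM. The liver markers were higher, *Alb* at 13.4 CPM (6.58 CPM per kb, above the median gene) and *Apoa1* at 1.4 CPM.

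All 39 lysosomal genes had a mean of at least 1 CPM, 32 had at least 10 CPM and 8 had at least 100 CPM. Among the 13001 genes with at least 1 CPM, 57.7% reached 10 CPM and 4.58% reached 100 CPM. Per kb of exon, the median lysosomal gene stood at 13.6 CPM per kb, and the median of the 12815 genes that could be given a length was 3.95. Of the lysosomal genes, 31 were above that median, 14 were above the 90th percentile of 21.6 CPM per kb and 3 were above the 99th percentile of 148. Those 3 genes were *Cd63*, *Lamp1* and *Ctsd*. The lysosomal genes made up 0.304% of the genes with a length and 1.01% of the summed level per kb.

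**Figure D1:**
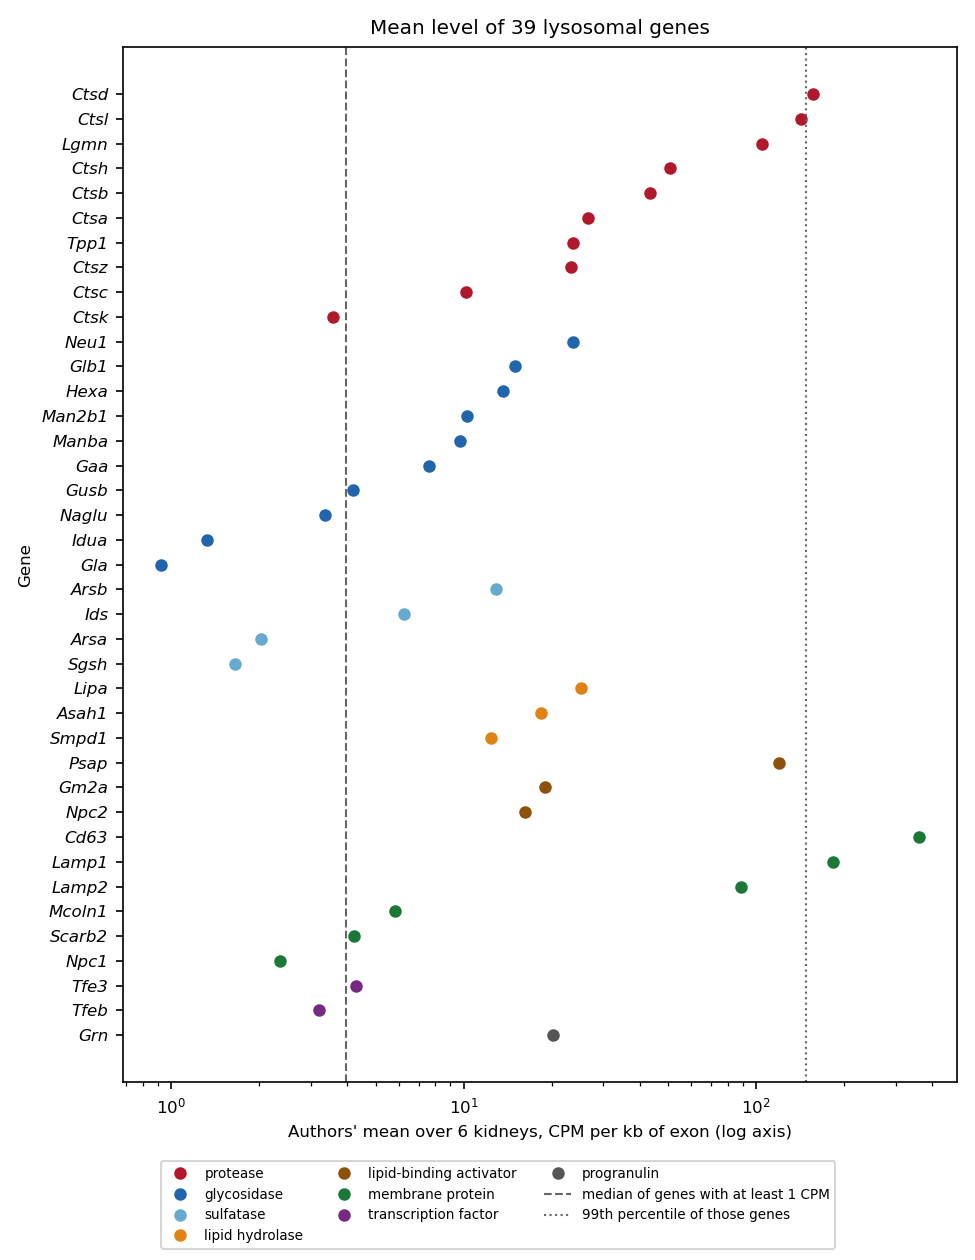
Each point is the authors' mean of 1 lysosomal gene over the 6 kidneys, in CPM per kb of exon on a log axis, coloured by class and ordered within it, with no error since no value for a single kidney was analysed. The genes run from 0.919 CPM per kb for *Gla* to 361 for *Cd63*, and the dashed and dotted lines mark the median (3.95) and 99th percentile (148) of genes with at least 1 CPM.

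The proteases were abundant with few exceptions. Their median was 34.9 CPM per kb, 9 of the 10 were above the median gene and 8 were above the 90th percentile. The aspartic protease cathepsin D, *Ctsd*, led them at 157 CPM per kb, followed by the cysteine protease cathepsin L, *Ctsl*, at 142. *Ctsd* lies on chromosome 7 from 142375910 to 142387827 and *Ctsl* on chromosome 13 from 64361890 to 64370772 (GRCm38). Legumain, *Lgmn*, an asparaginyl endopeptidase that processes other cathepsins and is known for its high activity in kidney, stood at 105 CPM per kb. These 3 proteases thus had levels of the same order as *Aqp1*, a water channel of the proximal tubule, at 127. The 6 proximal tubule markers ranged widely, from 11.4 to 423 CPM per kb.

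Below them, *Ctsh*, an aminopeptidase, and *Ctsb*, which acts as an endopeptidase and a carboxypeptidase, had 50.7 and 43.3 CPM per kb. The order of *Ctsb* depended on length, because its matched transcript has 4743 bases of exon against 1617 for *Ctsh*, and before scaling *Ctsb* had 206 CPM and *Ctsh* 82.0. The serine carboxypeptidase *Ctsa*, the tripeptidyl peptidase *Tpp1* and the carboxypeptidase *Ctsz* lay close together at 26.5, 23.7 and 23.2 CPM per kb. *Ctsc*, the dipeptidyl peptidase that activates the granule proteases of immune cells, had 10.2 CPM per kb. *Ctsk*, the collagen-degrading cathepsin known from osteoclasts, was the lowest protease at 3.58 CPM per kb (5.41 CPM). The ratio of *Ctsl* to *Ctsk* was 39.8, although both belong to the same papain-like family.

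The glycosidases, which remove sugars from glycolipids, glycoproteins and glycosaminoglycans, were less abundant as a class. Their median of 8.66 CPM per kb was above that of the median gene, and 7 of the 10 exceeded it, but only *Neu1* passed the 90th percentile. *Neu1*, the sialidase, had 23.6 CPM per kb, near the 26.5 of *Ctsa*, the protein that stabilizes it in a complex with the β-galactosidase encoded by *Glb1*. *Glb1* itself had 14.9 CPM per kb, so the 3 genes of this complex lay within a ratio of 1.78. *Hexa*, the α-subunit of β-hexosaminidase, stood at 13.6 CPM per kb. *Man2b1* and *Manba*, which remove α- and β-linked mannose, had 10.2 and 9.71 CPM per kb, and *Gaa*, the acid α-glucosidase that breaks down glycogen, had 7.60.

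*Gusb*, the β-glucuronidase, lay just above the median gene at 4.18 CPM per kb, and the 3 remaining glycosidases lay below it. *Naglu*, an enzyme of heparan sulfate breakdown, had 3.36 CPM per kb. *Idua*, the α-iduronidase, had 1.32 CPM per kb. *Gla*, the α-galactosidase A lacking in Fabry disease, was the lowest of all 39 genes at 0.919 CPM per kb (2.92 CPM), at percentile 12.9 of genes with at least 1 CPM. *Gla* lies on chromosome X from 134588169 to 134601005. The levels of the glycosidases spanned 4.68 log2 units, against 5.46 among the proteases.

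The sulfatases had a median of 4.15 CPM per kb, near that of the median gene, with 2 of the 4 above it and none above the 90th percentile. *Arsb*, which removes sulfate from dermatan and chondroitin sulfate, had 12.8 CPM per kb, and *Ids*, the iduronate sulfatase, had 6.27. *Arsa*, which acts on sulfatide, a lipid abundant in kidney, had 2.02 CPM per kb, and *Sgsh*, the heparan sulfamidase, had 1.65. Both lay below the median gene. For *Arsb*, 48.2% of the exon bases of its transcript are also covered on the opposite strand by exons of the non-coding gene Gm26527, so reads of either cannot be told apart unless strand was used in counting.

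The 3 lipid hydrolases were in a narrow range. *Lipa*, the acid lipase for cholesteryl esters and triglycerides, had 25.1 CPM per kb, the acid ceramidase *Asah1* had 18.4 and the acid sphingomyelinase *Smpd1* had 12.4. The 10 other lipid and nucleic acid hydrolases described below ran wider, from 1.46 CPM per kb for *Dnase2a* to 53.7 for *Smpdl3a*. Among the activators, which present lipids to enzymes, *Psap* stood apart. This precursor of the saposins had 120 CPM per kb, which was 6.31 times the level of *Gm2a*, the activator of hexosaminidase, at 19.0. *Gm2a* had in turn 1.39 times the level of *Hexa*, whose product it assists. *Npc2*, the soluble carrier of cholesterol in the lumen, had 16.2 CPM per kb, and *Npc1*, the membrane protein that receives cholesterol from it, had 2.35, a ratio of 6.89.

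**Figure D2:**
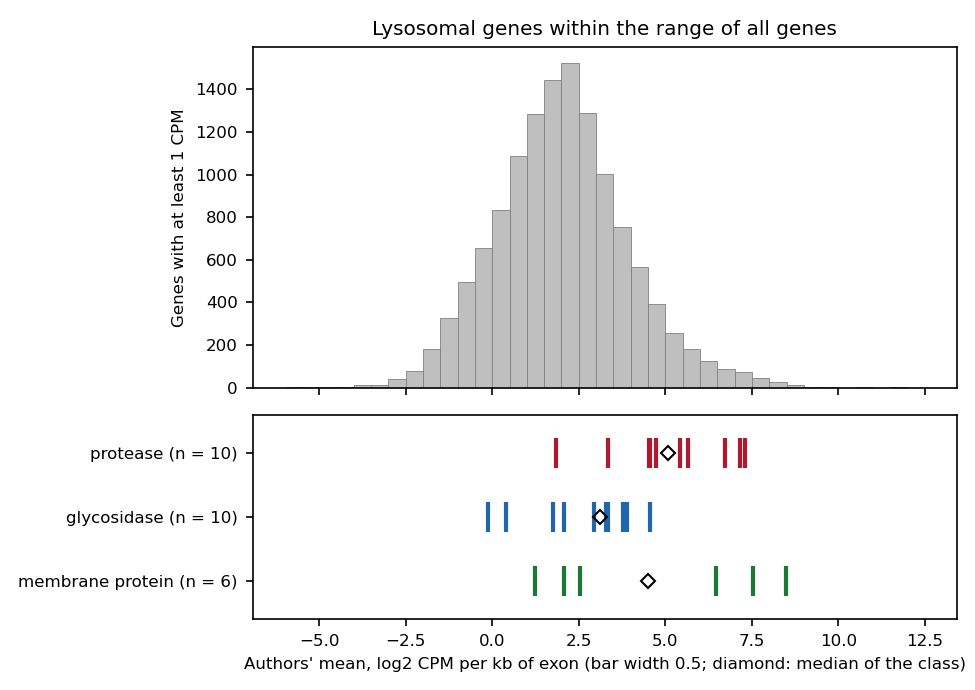
The upper panel counts the genes with at least 1 CPM by their mean level in log2 CPM per kb of exon, in bins of 0.5, and the lower panel places each protease, glycosidase and membrane protein on the same axis, with a diamond at the class median. The 10 proteases have a median of 5.08 and the 10 glycosidases one of 3.10, while the 6 membrane proteins form a high and a low trio on either side of their median of 4.51. *Scarb2* is placed in the low trio by its RefSeq transcript of 19.7 CPM, although an assembled transcript of the gene had 50.8 CPM.

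The membrane proteins had both the highest and some of the lowest levels. *Cd63*, a tetraspanin of late endosomes and lysosomes, was the highest of all 39 genes per kb, at 361 CPM per kb and within the top 1% of genes. It lies on chromosome 10 from 128896231 to 128912822. Its matched transcript has 1043 bases of exon against 2229 for *Lamp1*. Before scaling *Lamp1* was higher, with 409 CPM against 376 for *Cd63*. *Lamp1* and *Lamp2*, the heavily glycosylated proteins that coat the inner face of the membrane, had 183 and 88.9 CPM per kb. The 6 membrane proteins together made up 40.8% of the summed level per kb of the 39 genes, against 37.0% for the proteases and 5.66% for the glycosidases. Of the membrane proteins' sum of 646 CPM per kb, *Cd63* alone gave 361. Their place above the proteases in this sum thus rests on *Cd63* and on the scaling by length. *Mcoln1*, the calcium-permeable channel of the lysosomal membrane, had only 5.81 CPM per kb. *Scarb2*, the receptor that carries β-glucocerebrosidase to the lysosome, had 4.20 CPM per kb from its RefSeq transcript, whose 19.7 CPM were well below the 50.8 CPM of an assembled transcript of the gene, and *Npc1* was lowest. The level of *Scarb2* rests on that choice of transcript, but its 50.8 CPM also lay far below the 321 CPM of *Lamp2*. The difference between *Cd63* and *Npc1* was 7.26 log2 units.

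Compared by their medians on the log2 CPM per kb scale, the proteases lay 1.98 above the glycosidases and the membrane proteins 1.4 above the glycosidases. The membrane protein median minus the protease median was -0.58, but with 3 high and 3 low genes it fell in a gap where no membrane protein lay. The order of these classes turned with the processing. Without scaling by length the difference was -0.065 with the highest RefSeq transcript, 0.62 with the highest transcript of any kind and 0.31 with the median over a gene's transcripts, so the proteases and membrane proteins have no settled order. The comparison of classes is a description of which genes were placed in them, because genes are not replicates. Among the further lysosomal genes described below, the glycosidases had the highest median of these 3 classes.

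*Tfeb* and *Tfe3* had levels near that of the median gene. *Tfe3* had 4.28 CPM per kb and *Tfeb* 3.2, a ratio of 1.34, and they lay on either side of the median gene. The 2 other members of their family were similar, *Tfec* at 3.31 CPM per kb and *Mitf* at 2.88. *Grn*, whose product progranulin is cut into granulins in the lysosome, had 20.2 CPM per kb.

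The 39 genes were listed as 81 transcripts, of which 56 carried a RefSeq identifier and 25 had been assembled from the reads by the authors. There was a single transcript for 22 genes and several for 17. For *Psap*, the most abundant RefSeq transcript shares 93.8% to 100% of its exon bases with each of the 5 others, and its mean was above theirs by at most 0.0012 on the log2 CPM scale. Values of overlapping transcripts may therefore rest on the same reads. For 4 genes the most abundant transcript was an assembled one. In *Ctsa* it had 67.4 CPM and the RefSeq transcript 67.2 CPM, and in *Man2b1* (39.1 CPM) and *Grn* (47.3 CPM) both had the same rounded value. *Scarb2*, described above, was the exception. The assembled transcript of *Lgmn* was 2.0 log2 units below its RefSeq transcript. One assembled transcript of *Cd63* had a log2 CPM of 0.088, against 8.55 to 8.56 for its other 4 transcripts.

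*Lamp2*, on chromosome X from 38399647 to 38456460, is known to be spliced into proteins with different tails. Its RefSeq transcripts NM_010685 and NM_001017959 had log2 CPM values of 8.32 and 8.01. They share 1259 exon bases, which is 34.9% of the first and 71.2% of the second. The reads in shared exons could count for both, so the values do not give the proportion of the spliced forms.

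**Figure D3:**
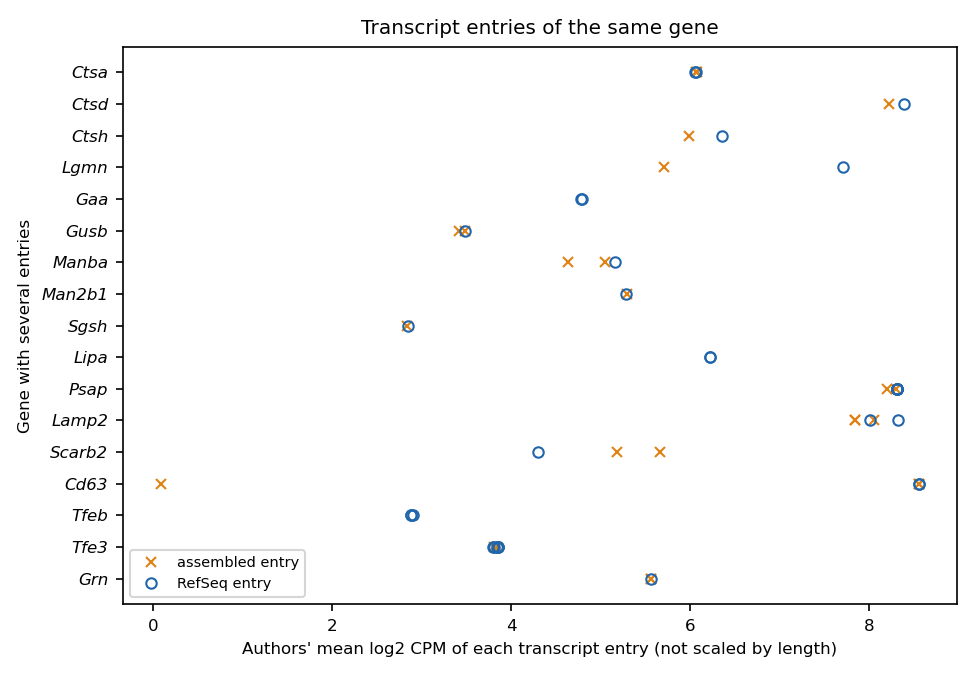
Each mark is the authors' mean log2 CPM, not scaled by length, of a transcript listed for the 17 lysosomal genes that had several, with blue circles for RefSeq and orange crosses for assembled transcripts. Most transcripts of a gene coincide, while *Scarb2*, *Lgmn* and *Cd63* have transcripts far from the others.

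The promoters were examined for the E-box CACGTG, the core of the element through which TFEB and TFE3 act on lysosomal genes and which other factors also bind. The letters read the same on both strands. A window from 250 bases before to 50 bases after the transcription start was present in the RefSeq set (GRCm38.p6) for 35 of the 39 genes. It was not analysed here for *Asah1*, *Ctsb*, *Ctsh* and *Npc1*. CACGTG was found in the windows of 12 genes, or 34.3% of the 35. It was found for 8.09% of all 27025 genes with a window and for 11.8% of the 9571 among them with at least 1 CPM. Since this E-box is already known to be shared by many lysosomal genes, the higher percentage is not an independent result, and it was not tested. The 12 genes were the proteases *Ctsa*, *Ctsd*, *Ctsl* and *Lgmn*, the glycosidases *Gaa*, *Gla*, *Glb1* and *Naglu*, the sulfatases *Arsa* and *Sgsh*, and the membrane protein genes *Lamp1* and *Mcoln1*. None of the windows of *Tfeb*, *Tfe3*, *Grn*, the lipid hydrolases or the activators held these letters.

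A longer match, with T before and A after the E-box, was present in 4 genes, or 11.4%, against 1.12% of all genes and 2.18% of those with at least 1 CPM. The windows of these 4 genes are shown because they hold the fuller form of the element. They run 5′ to 3′ on the gene's strand with the match in capitals, and are given with their GRCm38 positions.
Ctsa, chr2:164833749-164833778, plus strand: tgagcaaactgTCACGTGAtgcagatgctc
Ctsa, chr2:164833766-164833795, plus strand: gatgcagatgcTCACGTGAccagagctaca
Ctsd, chr7:142387908-142387937, minus strand: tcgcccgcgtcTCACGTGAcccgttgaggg
Gla, chrX:134601215-134601244, minus strand: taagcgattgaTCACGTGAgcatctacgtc
Gla, chrX:134601182-134601211, minus strand: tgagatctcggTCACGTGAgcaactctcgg
Mcoln1, chr8:3500462-3500491, plus strand: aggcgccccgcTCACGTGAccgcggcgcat

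*Ctsa* and *Gla* thus held 2 copies each. *Ctsd* and *Mcoln1* had a further E-box without these flanks. The window of *Lamp1*, on chromosome 8, held 4 copies of CACGTG, none with T before and A after, beginning 61, 45, 28 and 15 bases before the start, which was the highest number among the 35 genes. The genes with the fuller match had levels at both ends of the range, from *Gla* at 0.919 CPM per kb to *Ctsd* at 157. A match to these letters is a property of the reference sequence and does not show that a factor is bound in these kidneys.

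The cluster that was floxed in DKO kidneys encodes 6 miRNAs on chromosome 14, whose mature sequences are shown because their seeds (bases 2 to 8, in capitals) were sought in the members' transcripts. They fall into 4 seed groups. miR-17-5p and miR-20a-5p share a seed, as do miR-19a-3p and miR-19b-3p.
miR-17-5p: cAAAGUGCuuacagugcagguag
miR-20a-5p: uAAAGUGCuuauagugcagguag
miR-18a-5p: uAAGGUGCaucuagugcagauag
miR-19a-3p: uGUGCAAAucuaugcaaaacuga
miR-19b-3p: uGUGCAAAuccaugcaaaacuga
miR-92a-3p: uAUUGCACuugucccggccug

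A match to at least 1 of the 4 seeds was present in the annotated 3′-UTR of 10 of the 39 lysosomal genes, or 25.6%, and of 31.4% of 12454 genes with at least 1 CPM. The median 3′-UTR was 868 bases long in the lysosomal genes and 1030 in all. For the seed of miR-17-5p and miR-20a-5p, the match GCACTTT was found in *Ctsa*, *Idua* and *Neu1*, that is 7.69% against 13.7% of all. The 3 sites are shown as DNA with the match in capitals, since miR-17-5p gives the cluster the first part of its name.
Ctsa, chr2:164839413-164839441, plus strand: ggaccaagtgaGCACTTTgttccggccat
Idua, chr5:108683538-108683566, plus strand: tttgtggctaaGCACTTTataggcccagt
Neu1, chr17:34935014-34935042, plus strand: cgtcaccaagaGCACTTTtttccagtatg

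The site of *Idua* is followed by an A, which lies opposite the first base of the miRNA, and those of *Ctsa* and *Neu1* are not. The match to miR-18a-5p was found in *Gm2a*, *Neu1* and *Sgsh* (7.69% against 8.61%), that to the miR-19 seed in *Gm2a*, *Lipa*, *Psap* and *Tpp1* (10.3% against 12%), and that to miR-92a-3p in *Asah1* and *Gla* (5.13% against 7.06%). Per kb of 3′-UTR, the lysosomal genes held 0.0642 matches to the miR-17-5p seed against 0.106 in all genes. For the miR-19 seed the rates were 0.0857 and 0.0920. The rate was higher in the lysosomal genes for miR-18a-5p, 0.0857 against 0.0626, and for miR-92a-3p, 0.0642 against 0.0512. The higher rates rest on matches in only 3 and 2 genes, with repeated matches within *Sgsh* and within *Gla*, and were not tested. *Neu1* and *Gm2a* each held matches to 2 seeds. No match to any of the 4 seeds was found in the searched 3′-UTR of a lysosomal membrane protein gene or of *Tfeb* or *Tfe3*. Only the most abundant RefSeq transcript of each gene was searched, so the 3′-UTRs of other transcripts were not examined. Whether any of these sites is used was not tested.

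**Figure D4:**
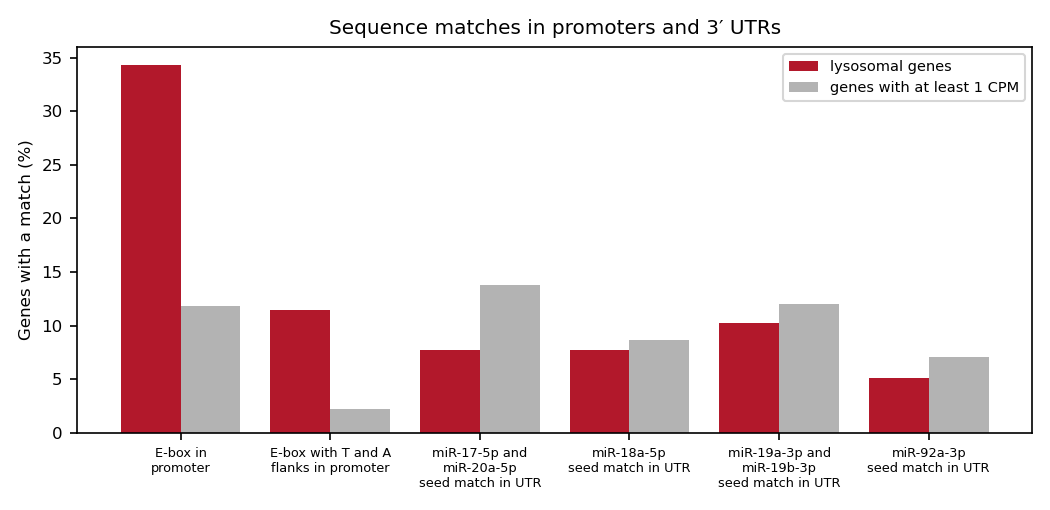
Bars give the percentage of genes with a match, among the lysosomal genes (red; 35 for promoters and 39 for 3′-UTRs) and among genes with at least 1 CPM (grey). The E-box was present in 34.3% against 11.8%, and each seed match in a smaller percentage of the lysosomal genes than of the others. Per kb of 3′-UTR the matches to miR-18a-5p and miR-92a-3p were more frequent in the lysosomal genes, but lay in only 3 and 2 of them.

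In gene structure, the lysosomal genes were near the average, with a median of 10 exons and 1425 coding bases against 9 exons and 1398 coding bases for the 12557 protein-coding genes with at least 1 CPM. The glycosidases had longer coding sequences than the proteases, with medians of 1942.5 and 1123.5 bases. The genes lie on 16 chromosomes. The closest neighbours were *Gaa* and *Sgsh* on chromosome 11, which are 58.0 kb apart, and *Smpd1* and *Tpp1* on chromosome 7, 186 kb apart. The exons of *Ctsd* overlap those of the gene model Gm49369 on the same strand over 38.0% of their length, which makes the value of *Ctsd* less certain, and exons of *Fdft1* lie opposite 16.3% of those of *Ctsb*.

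Other genes of the lysosome and its supply gave a setting for these levels. The 21 subunits of the V-ATPase, the proton pump that acidifies the lysosome and is also used by intercalated cells at the plasma membrane, had a median of 29.2 CPM per kb, close to the 34.9 of the proteases, and ranged from *Atp6v0a2* at 2.64 to *Atp6v0c* at 122. Among 10 further lysosomal proteases, *Napsa*, the aspartic protease napsin A known from kidney and lung, had 440 CPM per kb and was above *Ctsd*, while *Ctsw*, a cathepsin of cytotoxic lymphocytes, had 0.131. *Ctss*, a cathepsin typical of macrophages and other antigen-presenting cells, had 10.4 CPM per kb, near *Ctsc*. The 12 further glycosidases had a median of 10.1 CPM per kb, beside the 8.66 of the 10 described above, and all 12 had at least 10 CPM. *M6pr*, a receptor for mannose phosphate, was the highest of 14 genes for sorting hydrolases at 38.5 CPM per kb. Of 21 other lysosomal membrane proteins, *Laptm4a* was highest at 101 CPM per kb, below *Cd63* and *Lamp1*, and *Lamp3* was nearly absent at 0.0087. The other 10 proteases had a median of 8.10 CPM per kb, the 10 other lipid and nucleic acid hydrolases 4.70, the 14 sorting genes 5.55, and the 15 MiT family factors and their regulators 13.7. *Cst3*, the secreted inhibitor cystatin C, had 88.0 CPM per kb, whereas *Cst6* and *Cst7* had less than 1 CPM.

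**Figure D5:**
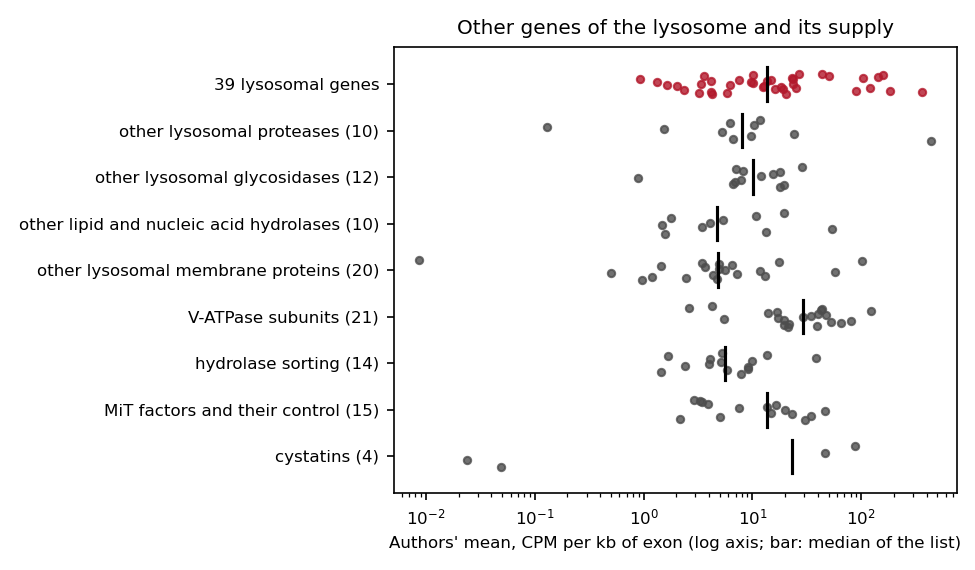
Each point is a gene's mean level in CPM per kb of exon on a log axis, with a bar at each median. The 39 lysosomal genes are red, and lists of other genes of the lysosome, its supply and its control are grey. Not all products of the listed genes reside in the lysosome. The number of genes with a length is in brackets. The V-ATPase subunits (median 29.2) lie above the 39 genes (13.6), and the other lysosomal membrane proteins (median 4.84) lie below them.

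All levels are averages over the cell types of the kidney, in which a gene expressed in few cells and a gene expressed weakly in many cannot be told apart. Macrophages are rich in lysosomes, and the 5 macrophage markers with a length ranged from 1.39 to 8.49 CPM per kb. The part of macrophages or of any tubule segment in the level of a lysosomal gene was not tested.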

How the data were processed

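Per the labels, RNA was extracted from kidneys of 3 SKO and 3 DKO mice and made into libraries with a stranded total RNA kit. The authors trimmed reads, mapped them to mm10 with TopHat2 2.0.12 and removed alignments of low mapping quality. The submitters' processing notes also name Cufflinks, featureCounts (Subread 1.4.6) and edgeR 3.2.4, without saying whether strand was used in counting. The deposited table has 5 value columns for 54721 transcripts. Only the log2 column of mean CPM over the libraries was used from the authors' table. The others hold the authors' comparison of DKO with SKO (fold change, statistic, p-values) and were not used, so the groups were not compared here.

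For each gene the transcript of highest mean was taken. Levels per kb used the highest RefSeq transcript and its exon length in GENCODE M21 (GRCm38), whose ends can differ from the annotation the authors used. Where several GENCODE transcripts were matched to a RefSeq transcript, the longest was used, which gives the lowest level per kb. A length was found for 22571 of 23276 genes. Percentiles were taken among genes with at least 1 CPM. Promoters and miRNAs came from RefSeq (GRCm38.p6), and 3′-UTRs from GENCODE M21, for the highest RefSeq transcript of each gene. The routines for UTRs and percentiles were tested on simulated data. Python 3.11.15, numpy 2.4.6 and pandas 2.3.3 were used. The members, classes and other lists were chosen with earlier results of these data known. All members are named, with the ends of lists and markers. The search for miRNA seed matches was added after the table was seen. Protein sequences, also planned, were not used here. The 3′-UTR sites shown, *Lamp1*'s E-boxes, *Cst7*, *Ctss*, *Mitf*, *Tfec* and the overlapping genes fall outside this rule and were chosen after their values were seen.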

Additional observations from a re-analysis of the deposited data

How the results depend on the processing

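With 1 mean per transcript, leaving out replicates was not run, values have no error and depth is unknown. No paired analysis was possible because only means over all kidneys were used. Counts of genes with at least 1, 10 and 100 CPM were the same when only RefSeq transcripts were used.

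The choice of transcript moved some medians of log2 CPM. That of the 39 genes was 5.29 with the highest transcript, 5.16 with the highest RefSeq transcript and 5.18 with the median over a gene's transcripts. That of the membrane proteins was 7.0, 6.31 and 6.60, and that of the proteases went from 6.38 to 6.29 with the median over transcripts.

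The length used moved the medians of log2 CPM per kb. With the median RefSeq length of a gene they were 5.00 for proteases, 3.13 for glycosidases and 4.72 for membrane proteins, and without scaling 6.38, 4.78 and 6.31. The proteases then lay 1.87 and 1.60 above the glycosidases and the membrane proteins 1.59 and 1.54 above them, while the membrane proteins minus the proteases gave -0.28 and -0.065. These unscaled values use the highest RefSeq transcript. In alternatives chosen after seeing the data, unscaled values with the highest transcript of any kind and with the median over transcripts put the proteases 1.60 and 1.51 and the membrane proteins 2.22 and 1.82 above the glycosidases, and the membrane proteins minus the proteases reversed to 0.62 and 0.31. Both classes thus lay above the glycosidases in each of these alternatives, while their own order turned.

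The median percentile of the 39 genes by CPM was 82.6 among genes with at least 1 CPM and 90.3 among all symbols. Requiring the T and A flanks left 4 promoters in place of 12. Restricting the comparison genes to those with at least 1 CPM, also chosen after seeing the data, raised their percentage with CACGTG from 8.09 to 11.8.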
